A study of Mus musculus with 2 samples.

Results

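The MiT/TFE factors are the 4 transcription factors encoded by Tfec, Mitf, Tfe3 and Tfeb, and they are described here with Acp5, the gene of tartrate-resistant acid phosphatase. These 5 genes were taken from 21947 genes named on the arrays, through all probesets that the array's annotation names with one gene alone. Tfec and Acp5 were selected on their differences between the 2 arrays described here, which are among the largest in each direction, and the other 3 genes as relatives of Tfec. The values of Tfec and Acp5 are therefore a description of the pair that was chosen and support nothing further. Of the 5 genes, 2 carry their current symbol in the annotation, and Tfec, Tfe3 and Tfeb are listed under the older symbols Tcfec, Tcfe3 and Tcfeb. Their probesets numbered 80, and none of the probesets naming several genes held one of them.

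The study compared cells of the mouse embryonic stem cell line Bry-GFP, whose GFP reporter sits in the mesoderm gene Brachyury, with and without an inhibitor of LSD1, a histone demethylase. FLK1-positive cells were taken from embryoid bodies on day 3 and cultured with 300 nM of the inhibitor compound B, or with the solvent DMSO alone. On culture day 2 the CD41-positive cells, labelled hemogenic endothelium, were sorted, and total RNA of each culture was hybridised to 1 Affymetrix array. There were 2 arrays in all, 1 with the LSD1 inhibitor and 1 with DMSO, from a single cell line. The conditions could not be tested against each other, and 1 array per condition sets the precision.

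MiT/TFE proteins are basic helix-loop-helix leucine zipper factors that bind DNA as dimers with themselves or with each other, at E-box sequences and at the longer M-box form of it. Mitf is known for its roles in melanocytes, osteoclasts and mast cells, Tfec for its expression in macrophages, and Tfeb and Tfe3 for driving lysosomal and autophagy genes. The kinase mTORC1 and the Rag GTPases hold Tfeb and Tfe3 in the cytoplasm of fed cells, a control on the protein that mRNA values do not show. Acp5 is an enzyme of osteoclasts and some macrophages, and in osteoclasts its promoter is a known target of Mitf and Tfe3.

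The promoters of the 2 genes with the largest differences are shown because the family acts at short sequence elements. They are RefSeq start sites of GRCm38.p6, from 250 bases before to 50 after the start, written 5′ to 3′ on the strand of the gene, with motif matches in capitals. Acp5 has 3 annotated start sites, and the first and last of them in the direction of transcription held a match. Tfec has 1 start site in the table.
Acp5, last start site, chr9:22130549-22130848, minus strand: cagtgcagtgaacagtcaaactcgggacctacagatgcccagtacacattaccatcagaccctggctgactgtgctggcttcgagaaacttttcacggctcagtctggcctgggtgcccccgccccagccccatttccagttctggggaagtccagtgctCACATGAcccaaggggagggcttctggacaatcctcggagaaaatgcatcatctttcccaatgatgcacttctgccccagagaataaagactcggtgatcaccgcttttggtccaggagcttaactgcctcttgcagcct
Acp5, first start site, chr9:22135697-22135996, minus strand: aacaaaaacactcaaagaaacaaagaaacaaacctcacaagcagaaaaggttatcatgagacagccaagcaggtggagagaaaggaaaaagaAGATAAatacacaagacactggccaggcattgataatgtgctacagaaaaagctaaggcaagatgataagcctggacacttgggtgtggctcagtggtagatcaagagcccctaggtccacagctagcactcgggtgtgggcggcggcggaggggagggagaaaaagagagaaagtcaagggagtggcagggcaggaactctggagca
Tfec, chr6:16898392-16898691, minus strand: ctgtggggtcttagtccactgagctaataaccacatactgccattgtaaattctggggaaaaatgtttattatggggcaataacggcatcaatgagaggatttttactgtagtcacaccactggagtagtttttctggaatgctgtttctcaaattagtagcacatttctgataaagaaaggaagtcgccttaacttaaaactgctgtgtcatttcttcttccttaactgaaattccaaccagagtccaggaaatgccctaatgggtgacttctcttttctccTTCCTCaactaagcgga

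The 5 motifs searched on both strands were the E-box CACGTG, a longer form of it, TCACGTGA, that overlaps it, the M-box core TCATGTG, the PU.1 core GAGGAA and the GATA sequence AGATAA. Other GATA sequences were not searched. TGATAA, which is present in the Tfec and first Acp5 windows above, is therefore not marked, and the matches are no full account of GATA sites. The M-box core was found at the last Acp5 start site, 90 to 84 bases before the start, on the strand opposite to the gene, so it reads CACATGA in the sequence above. Of the 32851 promoters in the table, 3.77% held that core. At the first Acp5 start site AGATAA lay 158 to 153 bases before the start, and 11.2% of all promoters held this motif. In the Tfec window the match was GAGGAA on the opposite strand, 34 to 39 bases after the start, a motif in 28.3% of promoters. The motif CACGTG was in 7.15% of promoters and TCACGTGA in 0.974%. Neither was found in the 12 promoters of the 5 genes, and none of the 5 motifs searched was found in those of Mitf, Tfe3 and Tfeb. A match describes letters in this window, not binding.

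Tfec was higher and Acp5 lower in the inhibitor array, while the other 3 factors differed by less than 2-fold. The values are log2 intensities, 1 per probeset and array. A probeset was called bright if the higher of its 2 values reached the median of all values on both arrays, 3.17, and 68 of the 80 probesets were bright. A gene was measured with at least 4 bright probesets, which all 5 genes had. Its level is the median of its bright probesets in an array, and its difference is the median of their differences, inhibitor minus DMSO. The size rule asks for a 2-fold gap, a log2 difference of 1 or more, and for agreement in sign among 75% or more of the bright probesets. Past this rule, 1 of the 5 genes was higher, against 1.72% of the 15087 measured genes, and 1 was lower, against 0.563%. Both counts follow from how the genes were chosen.

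Tfec, the family member of macrophages, had a level of 7.64 in the inhibitor array and 5.12 in the DMSO array. Its difference was 2.41 in log2, which is 5.32-fold (SD 0.84 over 8 bright probesets), and 13 measured genes were further up, so that it ranked 14 from the top. The bright probesets ran from 4.51 to 8.78 in the inhibitor array and from 2.07 to 5.94 in the DMSO array. All 8 were higher with the inhibitor, each by at least 1.23. Among the 1060 genes with 8 bright probesets, 5.19% had all 8 higher.

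The bright probesets of Tfec differed from each other in the size of the difference. The probeset with the largest difference had 7.55 in the inhibitor array and 3.99 in the DMSO array, a difference of 3.56. Next came one with 8.15 in the inhibitor array and 4.75 in the DMSO array, a difference of 3.40, and the brightest, with 8.78 in the inhibitor array and 5.48 in the DMSO array, a difference of 3.30. In each of these 3 probesets the DMSO value was above the table's median, so both sides of the difference were bright. The probeset with the smallest bright difference had 5.08 in the inhibitor array and 3.84 in the DMSO array. The remaining 3 of its 11 probesets were dim in both arrays. They had 2.94, 2.18 and 1.98 in the inhibitor array, against 2.74, 1.32 and 1.68 in the DMSO array, and each was higher with the inhibitor. Over all 11 probesets the difference was 1.97.

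**Figure D1:**
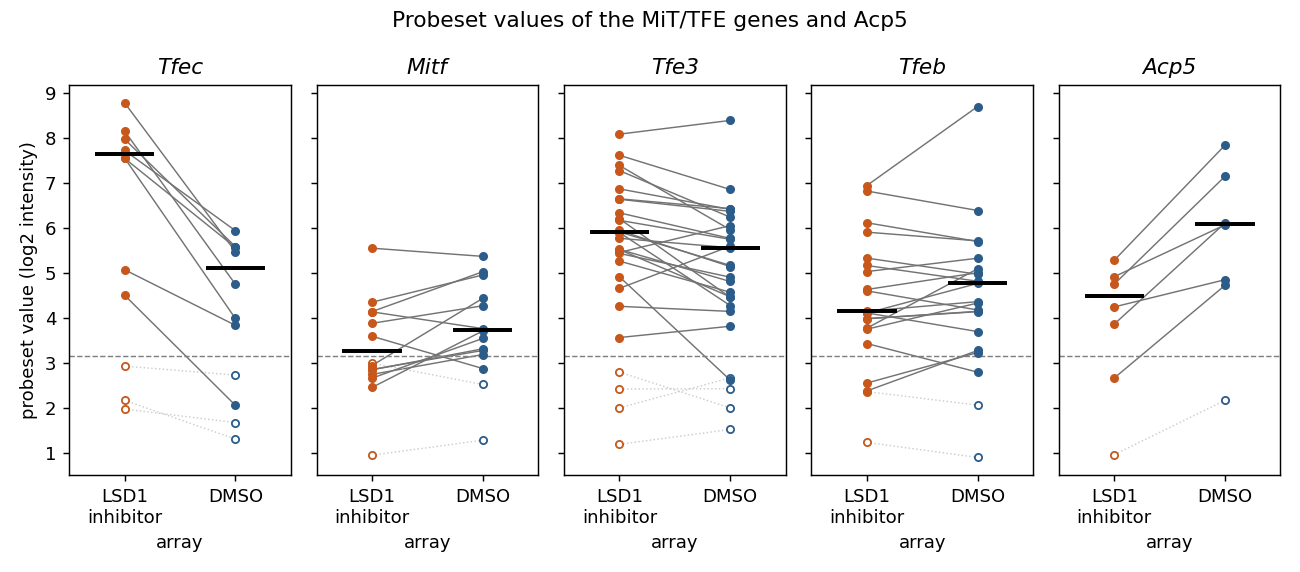
Values of every probeset of the 5 genes, in log2 intensity, in the LSD1 inhibitor array and the DMSO array, joined by a line per probeset. Filled points are bright and open points dim probesets, black bars are the gene's levels and the dashed line is the table's median of 3.17. All lines of Tfec fall and all lines of Acp5 rise toward DMSO, and the lines of Mitf, Tfe3 and Tfeb run both ways.

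Acp5, the phosphatase, had a level of 4.50 in the inhibitor array and 6.09 in the DMSO array. Its difference was -2.15, which is 4.44-fold lower with the inhibitor (SD 0.78 over 6 bright probesets), and it ranked 8 from the bottom of all measured genes. All 6 bright probesets were lower, and the same held for 2.17% of the 1150 genes with 6 bright probesets. In bulk RNA, fewer cells that express a gene and less of its RNA per cell cannot be told apart, and this holds for each difference given here.

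The Acp5 probesets split into a set with large and a set with small differences. The brightest had 5.28 in the inhibitor array and 7.84 in the DMSO array, and the next 4.75 in the inhibitor array and 7.15 in the DMSO array, differences of -2.55 and -2.39. Another 2 had 3.87 and 2.67 with the inhibitor, against 6.11 and 4.73 with DMSO, differences of -2.24 and -2.06. The smaller differences were -1.15, in a probeset with 4.92 in the inhibitor array and 6.07 in the DMSO array, and -0.60, in one with 4.25 in the inhibitor array and 4.85 in the DMSO array. The sources used here do not place these probesets at start sites or exons. The dim probeset had 0.97 in the inhibitor array and 2.18 in the DMSO array. Acp5 still had a level above the table's median in the inhibitor array, where 5 of its 7 probesets reached that median, against 6 of 7 with DMSO.

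Tfe3, a broadly expressed member that acts on lysosomal genes, had a level of 5.91 in the inhibitor array and 5.56 in the DMSO array. Its difference was 0.57, or 1.48-fold (SD 0.75 over 23 bright probesets), and 92.7% of measured genes had a lower difference. With the inhibitor 19 of the 23 bright probesets were higher and 4 lower. The spread among them was wide. The largest difference was 2.29, in a probeset with 4.92 in the inhibitor array and 2.63 in the DMSO array. The brightest probeset was at 8.08 with the inhibitor and 8.39 with DMSO, a difference of -0.30. In all, 6 bright probesets were higher by at least 1 and none was lower by that much.

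Tfeb, the member best known as a regulator of lysosome formation, had a level of 4.16 in the inhibitor array and 4.77 in the DMSO array. Its difference was -0.16 (SD 0.66 over 19 bright probesets), with 8 probesets higher and 11 lower, and its sign changed with the probesets used. It was 0.19 with a brightness limit at the table's 75th percentile, 0.0945 with odd-ranked probesets and -0.66 with even-ranked ones. Its brightest probeset was also the one with the lowest difference, at 6.94 in the inhibitor array and 8.69 in the DMSO array, a difference of -1.75. No direction is given for Tfeb.

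Mitf had a level of 3.27 in the inhibitor array and 3.74 in the DMSO array, close to the table's median in both. Its difference was -0.45 (SD 0.64 over 12 bright probesets), with 3 probesets higher and 9 lower. Most of the lower ones counted as bright through their DMSO value alone, so this split depends in part on the brightness rule. Over all 14 probesets, bright or dim, 4 were higher and 10 lower, and the difference was -0.43. When low values were raised to the table's median, the difference was -0.26. In the inhibitor array 6 of its 14 probesets reached the table's median, against 11 of 14 in the DMSO array. The brightest, at 5.55 with the inhibitor and 5.37 with DMSO, was higher by 0.18, and the one with the lowest difference, -1.49, had 2.95 in the inhibitor array and 4.44 in the DMSO array. The table of promoters gives Mitf 3 start sites, and the files do not say which probesets belong to which.

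**Figure D2:**
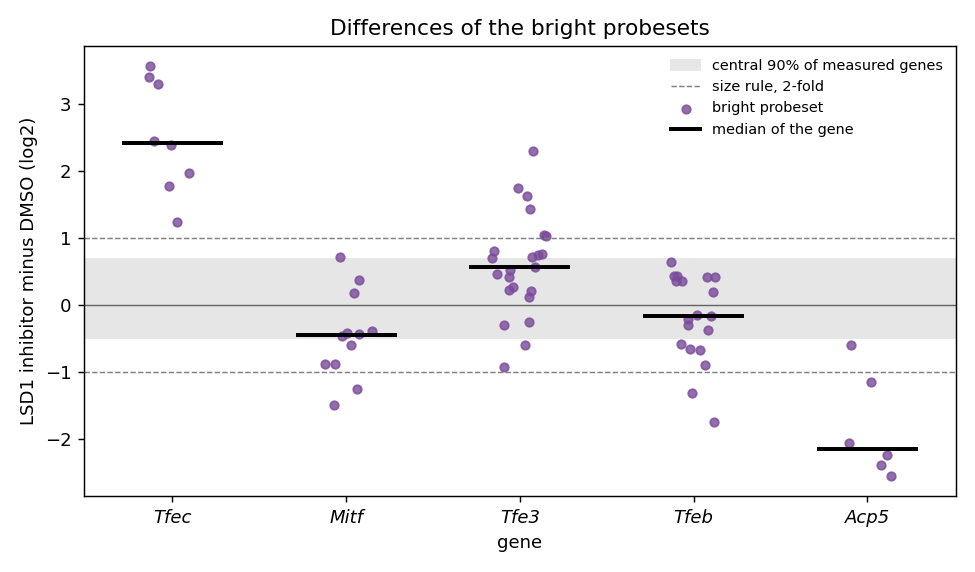
Difference of each bright probeset, LSD1 inhibitor minus DMSO in log2, for the 5 genes, with the gene's median as a black bar. The grey band is the central 90% of all measured genes, from -0.50 to 0.68, and the dashed lines mark a 2-fold difference. Tfec at 2.41 and Acp5 at -2.15 lie outside the band, and Mitf, Tfe3 and Tfeb inside it.

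The 4 factors did not share a direction. Across all measured genes the median difference was 0.06 and 59.0% were above 0. Tfec and Tfe3 lay above that median and Mitf below it. Levels are not compared between the 4 genes, since the brightness of a probeset depends on its probes as well as on its transcript.

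**Figure D3:**
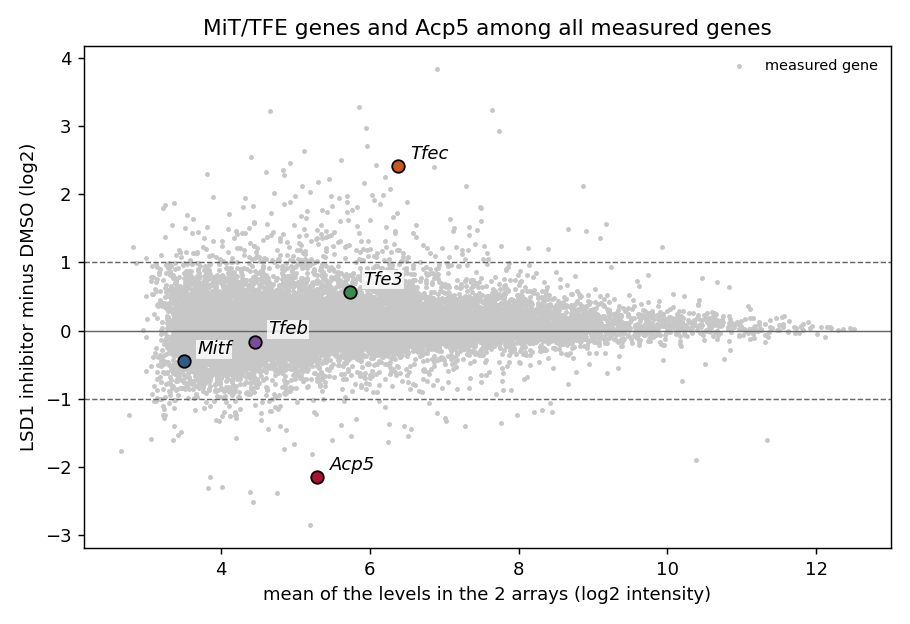
Difference in log2, LSD1 inhibitor minus DMSO, against the mean of the 2 levels in log2 intensity, for 15087 measured genes in grey and the 5 genes in colour. Dashed lines mark a 2-fold difference. Tfec at 2.41 and Acp5 at -2.15 stand at the edges of the cloud, and the other 3 factors lie within it.

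Of 8 measured acid phosphatases 1 was lower past the size rule, against 0.563% of all measured genes, and none was higher, against 1.72%. The lower one was Acp5, which was chosen for its difference, so this count follows from that choice. The list's median was 0.036, and -0.014 when dim probesets were kept. The next in size were Acp6, a lysophosphatidic acid phosphatase, with levels of 7.27 in the inhibitor array and 7.16 in the DMSO array and a difference of 0.34, and Pxylp1, a phosphatase of proteoglycan linkers, with 3.57 in the inhibitor array and 3.73 in the DMSO array and a difference of -0.17.

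Genes of the lysosome, on which Tfeb and Tfe3 act, lay mostly a little above 0. Of 21 measured lysosomal hydrolases 1 was higher past the size rule, against 1.72% of all measured genes, and none was lower, against 0.563%. Their median was 0.34, against 0.06 over all measured genes, and 20 of 21 were above 0, against 59.0%. The higher one was Scpep1, a serine carboxypeptidase, with levels of 5.94 in the inhibitor array and 4.85 in the DMSO array and a difference of 1.08 (SD 0.48 over 12 probesets), and it fell short of the rule at 0.98 as a mean over probesets and at 0.89 with odd-ranked probesets. Lipa, the lysosomal lipase, differed by 0.94 with 10 of 12 probesets higher. Hexa, a hexosaminidase subunit, differed by 0.76 with 14 of 14 probesets higher. Among 14 lysosomal membrane proteins 1 was higher, against the same 1.72%, and none lower, with a median of 0.11. This was Npc1, the lysosomal cholesterol exporter, at 6.88 in the inhibitor array and 5.69 in the DMSO array, a difference of 1.15 (SD 0.82 over 30 probesets), and 0.86 as a mean over probesets. Cln3 differed by 0.57 and Pip4p1, a lysosomal phosphoinositide phosphatase, by 0.53.

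The vacuolar ATPase, the proton pump that acidifies lysosomes, had most subunits slightly above 0. Of 17 measured subunits 1 was higher, against 1.72% of all measured genes, and none was lower, against 0.563%, with a median of 0.23. Tcirg1, the subunit used at the ruffled border of osteoclasts, had levels of 6.63 in the inhibitor array and 5.50 in the DMSO array and a difference of 1.10 (SD 0.68 over 21 probesets), and it fell short of the rule at 0.98 with odd-ranked probesets alone and at 0.91 with low values raised to the table's median. Atp6v0b differed by 0.53 and Atp6v0d2, another osteoclast subunit, by -0.43 over 5 probesets that ran both ways. None of 19 autophagy genes was higher past the size rule, against the same 1.72%, or lower, against 0.563%, and their median was 0.17. Sqstm1, the autophagy receptor p62, differed by 0.54 in 10 of 10 probesets, Uvrag by 0.37 and Atg9b by 0.28. Atg9b was at -0.003 with even-ranked probesets and at 0.036 with brightness at the 75th percentile, so no direction is given for it.

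Genes that set where Tfeb and Tfe3 reside in the cell did not pass the size rule either. Of 21 measured genes of mTORC1, the Rag GTPases and folliculin, none was higher past it, against 1.72% of all measured genes. None was lower, against 0.563%, and the median was 0.11. For a list of this length, no gene past the rule is near these shares. Rragd, a Rag GTPase that is itself a target of the MiT/TFE factors, had levels of 5.66 in the inhibitor array and 4.48 in the DMSO array and a difference of 0.71. Tsc1, a brake on mTORC1, differed by -0.63 with 27 of 29 probesets lower, and Lamtor4, a part of the lysosomal Rag anchor, by 0.50. Among 17 other E-box factors of the helix-loop-helix zipper type none passed the rule, also near these shares, with a median of 0.13. Mycn differed by 0.70, Mxd3 by 0.59 and Mlxipl by -0.38.

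Osteoclast genes, the setting in which Acp5 is a target of Mitf, went both ways. Of 19 measured genes 2 were higher, against 1.72% of all measured genes, 1 was lower, against 0.563%, and the median was 0.055. With each gene taken as a mean over probesets, the median was -0.074. Besides Tcirg1, the higher one was Nfatc1, a transcription factor of osteoclasts and of endocardium, with levels of 6.38 in the inhibitor array and 5.38 in the DMSO array and a difference of 1.04 (SD 0.66 over 22 probesets). It fell short of the rule in 4 of 11 alternatives, down to 0.76. The lower one was Car2, a carbonic anhydrase that red cells also carry in quantity, with 7.71 in the inhibitor array and 9.18 in the DMSO array and a difference of -1.19, and -0.55 with odd-ranked probesets alone. Of the 5 defining osteoclast markers, Ctsk, Calcr, Dcstamp, Ocstamp and Atp6v0d2, the median over all probesets ran from 2.62 to 4.02 in the inhibitor array and from 3.04 to 3.51 in the DMSO array. These markers lay near the table's median of 3.17 in both arrays, and their part in the Acp5 difference was not tested.

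Macrophage genes, the setting known for Tfec, held 2 higher of 15 measured genes, against 1.72% of all measured genes. None was lower, against 0.563%. The median was 0.14, and -0.039 over 10 genes with even-ranked probesets. Lyz2, lysozyme, had levels of 6.25 in the inhibitor array and 4.48 in the DMSO array and a difference of 1.77 (SD 0.15), in 5 of 5 probesets. Mrc1, the mannose receptor, had 4.999 in the inhibitor array and 3.19 in the DMSO array, the latter close to the table's median. Its difference was 1.49 (SD 0.97), in 26 of 26 probesets, and 1.02 with low values raised to that median. Endothelium of some organs also expresses Mrc1. Mertk, a receptor for the uptake of dead cells, differed by -0.70. Of the 6 defining macrophage markers, Csf1r, Adgre1, C1qa, C1qb, C1qc and Cx3cr1, the median over all probesets reached the table's median for 5 in the inhibitor array and 3 in the DMSO array. It ran from 2.30 to 5.23 in the inhibitor array and from 2.55 to 5.39 in the DMSO array. The counts differed through Csf1r and C1qc, which lay close to the table's median in both arrays. Csf1r was at 3.27 with the inhibitor and 3.04 with DMSO, and C1qc at 3.20 with the inhibitor and 3.09 with DMSO. The median of the probeset differences was -0.026 for Csf1r and 0.53 for C1qc. Adgre1 was at 2.30 with the inhibitor and 2.55 with DMSO. Summed on the linear scale, the medians of the 6 markers gave 89.1 in the inhibitor array and 93.6 in the DMSO array. Cx3cr1, the highest of the 6 in both arrays, was at 5.23 with the inhibitor and 5.39 with DMSO over 2 probesets. Neither the counts nor the sums measure the share of macrophages. The part of macrophages in the Tfec difference was not tested.

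Melanocyte and mast cell genes, the settings known for Mitf, gave few differences of size. None of 15 measured melanocyte genes was higher past the rule, against 1.72% of all measured genes, or lower, against 0.563%. Their median was -0.052, which turned to 0.022 when dim probesets were kept. Met differed by 0.75, Rab27a by 0.58 and Ednrb, an endothelin receptor, by -0.54. Met was at 0.029 when dim probesets were kept, at 0.023 with low values raised to the table's median and at 1.14 with the brighter probesets alone. Of 9 measured mast cell genes 7 were below 0 and the median was -0.353. That median turned to 0.057 over 11 genes when dim probesets were kept and to 0.37 over 2 genes with brightness at the 75th percentile. No direction is given for this list. Past the rule 1 was higher, Gata2, a factor shared with blood progenitors, at 1.41, against 1.72% of all measured genes, and none was lower, against 0.563%. Tpsb2, a tryptase, differed by -0.85 and Hdc, histidine decarboxylase, by 0.76. Of the 4 defining mast cell markers none reached the table's median in the inhibitor array and 2 did in the DMSO array. These 2 lay close to that median in both arrays. Cpa3 was at 2.86 with the inhibitor and 3.40 with DMSO, and Cma1 at 2.83 with the inhibitor and 3.41 with DMSO. The median of the probeset differences was -0.10 for Cpa3, -0.29 for Cma1, -0.42 for Tpsb2 and 0.17 for Ms4a2. The counts are therefore not read as a change in mast cell signal. Of the 5 defining melanocyte markers 2 reached it in each array.

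**Figure D4:**
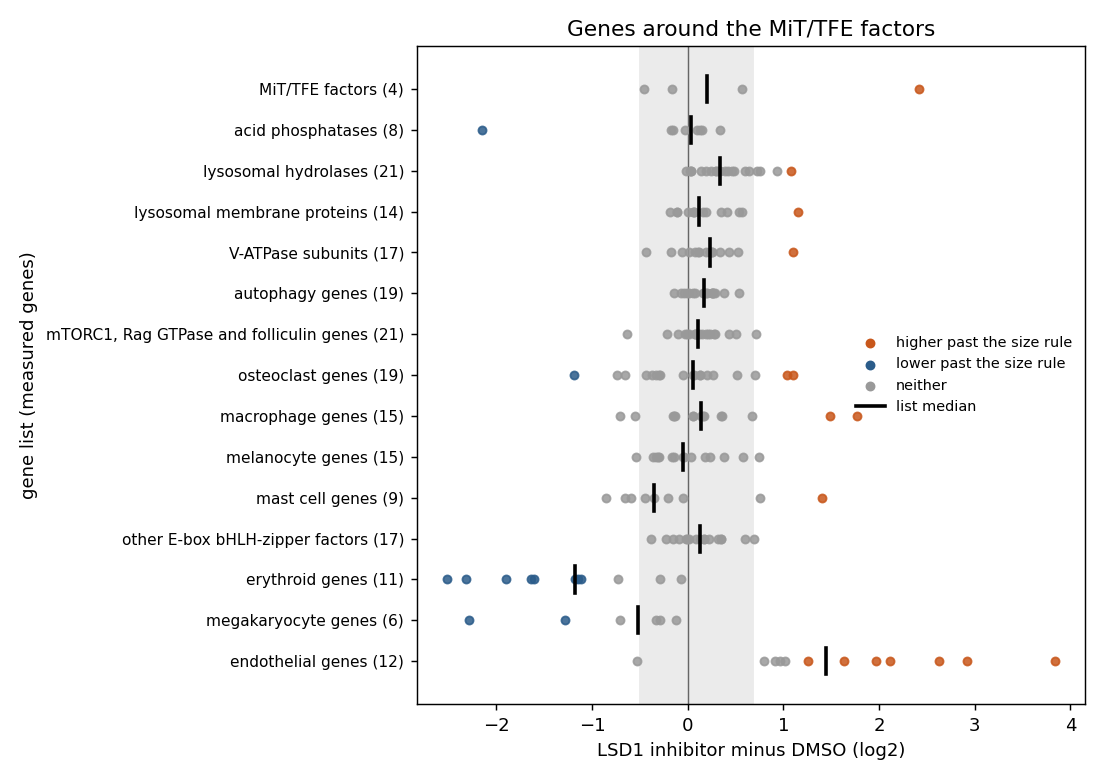
Difference in log2, LSD1 inhibitor minus DMSO, of each measured gene in 15 lists, with the number of measured genes in brackets and the list's median as a black bar. Orange points are higher and blue points lower past the size rule, and the grey band is the central 90% of all measured genes. The medians of the lysosome and autophagy lists lie between 0.11 and 0.34, and erythroid and endothelial genes stand further out on opposite sides.

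The sorted cells differed between the arrays in lineage genes that lie outside this family. The 4 defining endothelial markers, Cdh5, Kdr, Tek and Pecam1, had medians over all probesets from 6.65 to 9.84 in the inhibitor array and from 5.69 to 7.89 in the DMSO array, and 7 of 12 measured endothelial genes were higher past the size rule, against 1.72% of all measured genes. Sox7, an endothelial factor, differed by 3.84, Ramp2 by 2.92 and Ptprb by 2.63. Cd34, which blood progenitors share with endothelium, was the one member below 0, at -0.53, and was picked out after its value was seen. Of 11 measured erythroid genes 8 were lower past the rule, against 0.563% of all measured genes. The largest differences were -2.51 for Trim10 (SD 1.52), -2.31 for Car1 (SD 1.84 over 5 probesets) and -1.89 for Hbb-y. Car1 had an inhibitor level of 2.67, below the table's median. The 3 erythroid genes not past the rule were Gata1 at -0.73, Hbb-bh1 at -0.29 and Alas2 at -0.07. Of 6 measured megakaryocyte genes 2 were lower past the rule, Pf4 by -2.29 and Thbs1 by -1.28. Pf4 fell short of the rule, at -0.77, with low values raised to the table's median. These lists, like the others, were written with earlier results of these data known, so their counts may follow in part from that choice. The sort marker gene Itga2b, which encodes CD41, had levels of 5.996 in the inhibitor array and 6.19 in the DMSO array. Its difference was -0.12, with 20 of 29 probesets lower. Of the other markers of CD41-positive blood precursors, Runx1 differed by 0.115 and Kit by -0.65, as medians over all probesets. The part of these lineage gene differences in those of Tfec and Acp5 was not tested. With 2 arrays all differences coincide, so the design cannot separate them.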

How the data were processed

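Total RNA from 2 sorted cell samples was measured on 2 Affymetrix arrays. Per the labels' protocols, amplified cRNA was turned into single-stranded cDNA, fragmented and labelled with biotin. The deposited values, 1 per probeset and array for 1048575 probesets, were read as log2 intensity because they run from 0.157 to 13.5. That number of rows is the most a spreadsheet with a header line can hold, so further probesets of a gene may exist that were not analysed here. How they were summarised and normalized is not given in the sources used here. At equal rank the 2 arrays are within 0.085 of each other.

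Gene symbols came from the platform annotation, which names 275842 probesets. Of 22133 symbols, 17905 were current in RefSeq (GRCm38.p6), 4167 were updated through synonyms and 61 were kept unmatched. Values were used as deposited. No coordinates are given for probesets because their build is not named. Python 3.11.15, pandas 2.3.3, numpy 2.4.6 and statsmodels 0.14.6 were used. The gene summary was tested on simulated data, where it recovered 200 of 200 genes changed 4-fold among 15087 and called 4 unchanged genes.

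The 5 genes, the 15 lists (228 genes, 203 measured) and the alternatives were chosen with earlier results of these data known. Named by rule were the 5 genes, in each list the genes past the size rule and the 3 largest differences, and the defining cell type markers. Not all of these are described singly, above all in the endothelial, erythroid and megakaryocyte lists. The rule also took the 3 genes nearest to Tfec and to Acp5 in level, which are not described because levels of different probes are not comparable between genes. There is 1 array per group and therefore no p-value, and an SD is the spread over the probesets of a gene, not a replicate error. Alternatives changed the scaling, the filter on dim probesets, the summary, the probesets used, the treatment of low values and the size rule.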

Additional observations from a re-analysis of the deposited data

How the results depend on the processing

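The differences of Tfec, Acp5, Mitf and Tfe3 kept their direction and their side of the size rule in every alternative that measured them. These were 10 alternatives for Tfec (1.97 to 2.84), 8 for Acp5 (-2.24 to -1.83), 10 for Mitf (-0.54 to -0.26) and 11 for Tfe3 (0.19 to 0.76). Keeping probesets with several symbols could not change these values, since none of those probesets names a member. All alternatives reuse the values on which Tfec and Acp5 were chosen, so they give no further support for the pair. Tfec with even-ranked probesets, Acp5 with odd-ranked, even-ranked or brighter probesets, and Mitf with brightness at the 75th percentile had fewer than 4 bright probesets and gave no value. Tfeb turned to 0.19 with brightness at the 75th percentile and to 0.0945 with odd-ranked probesets. The cause was not tested. Counts of all genes past the size rule moved with its terms: 641 higher and 439 lower with at least 1 bright probeset, 155 and 44 with at least 8, 882 and 402 at 1.5-fold, and 70 and 18 at 3-fold. With low values raised to the table's median, 51 genes were lower, against 85. Of 31 other named genes past the rule, 20 passed it in every alternative that measured them. Those that fell short in at least 1 were Scpep1, Npc1, Tcirg1, Nfatc1, Car2, Pf4, Klf1, Slc4a1, Erg and, from the genes near Acp5 in level, Cpne7 and Ptprj. Lipa, Met, Pip4p1 and Mxd3 passed the rule in 1 alternative each, and Atg9b changed sign in 1. No paired analysis was possible because each group has 1 array, and no array could be left out. The table gives no detection call, so dim probesets have no known distance from background.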
